A study of Caenorhabditis elegans with 12 samples.

Results

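The 7 transcription factors described here, myrf-1, blmp-1, grh-1, nhr-25, nhr-85, bed-3 and nhr-23, drive or time the larval molts of the nematode Caenorhabditis elegans. They were chosen by gene name, with earlier results of these data known. All 7 of the 7 names were present among the 19568 genes of the deposited table. RNA of whole worms at the L4 larval stage, the last before adulthood, was sequenced in 12 libraries, and each of 4 genotypes had 3 biological replicates. These were the double mutant lonp-1(cmh24)_mrps-38(P210L), the single mutants lonp-1(cmh24) and mrps-38(P210L), and wildtype, named N2 in the library labels and grown like the others on HT115 E. coli. LONP-1 is a protein-degrading enzyme inside mitochondria, and MRPS-38 belongs to the small subunit of the ribosome there. The labels give neither the age in hours nor the point within the L4 stage at which worms were collected, nor the nature of the cmh24 allele.

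Nematode larvae shed and rebuild their cuticle at the end of every stage, and a large set of epidermal transcripts rises and falls once per molting cycle. The factors studied here belong to the regulatory layer of that cycle and several of them are themselves made in pulses that recur with each molt. nhr-23, nhr-25 and nhr-85 are nuclear hormone receptors related to the fly ecdysone-cascade genes DHR3, Ftz-F1 and E75. grh-1 is a Grainyhead factor of epidermal barriers, blmp-1 the worm Blimp-1 zinc-finger protein, myrf-1 a membrane-anchored factor related to the mammalian myelin regulatory factor, and bed-3 a BED zinc-finger protein needed for molting. nhr-23 has a second known role in spermatogenesis.

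The libraries held 22614493 to 22890539 reads in genes. The deposited normalized counts (reads divided by 1 size factor per library) are the unit of level below, and FPKM, which corrects for gene length, is used wherever different genes are compared. Testing was done with limma on log2(normalized count + 1), the scale of all fold changes, over the 15717 genes whose mean reached 10. All 7 factors passed that filter. Rose and fell are used of genes with an adjusted p (Benjamini-Hochberg) under 0.05, errors of log2 fold changes are SE, and n = 3 libraries per group throughout. Nothing in the labels beyond the word biological says how the replicates were raised. The lonp-1 transcript averaged 1437 ± 43.7 normalized counts in the double mutant and 1339 ± 5.8 in lonp-1(cmh24), against 1613 ± 48.6 in mrps-38(P210L) and 1688 ± 61.9 in wildtype (SD), and the mrps-38 transcript was not analysed here.

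The genotypes also differed in transcripts of maturing worms. In these libraries that difference cannot be separated from genotype, and its part in the results below was not tested. Yolk protein genes (6 vitellogenins) took 2.44 to 2.46% of reads in the double mutant, 0.753 to 1.07% in lonp-1(cmh24), 0.000624 to 0.00383% in mrps-38(P210L) and 0.094 to 0.11% in wildtype. The 29 major sperm protein genes took 0.726 to 0.758%, 0.155 to 0.168%, 0.00235 to 0.0165% and 0.111 to 0.122% in the same order of genotypes. In mrps-38(P210L), replicate 3 lay away from replicates 1 and 2, with the highest of these shares in its group and a score of 121.8 on the first principal component, against 172.8 and 173.8. Replicate 1 of lonp-1(cmh24) differed more from replicates 2 and 3 (a mean chi-square per gene of 26.7 and 17.1) than those did from each other (2.98). In wildtype the pair of replicates 1 and 2 had the highest value of any group (28.9), with 11.9 between replicates 2 and 3 and 6.98 between 1 and 3. Every value of the 7 factors was recomputed without each library, and changed calls are given beside it.

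Levels per genotype come first. myrf-1 had 590.3, 626 and 589 normalized counts in the double mutant, 2431, 1912 and 1897 in lonp-1(cmh24), 5304, 5491 and 5345 in mrps-38(P210L), and 3465.5, 3168 and 3334 in wildtype. None of the 4 genotypes overlapped with another in these libraries, and replicate 1 was the highest of lonp-1(cmh24).

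For blmp-1 the counts were 343, 351 and 337 in the double mutant, 974, 668 and 726 in lonp-1(cmh24), 1915, 1962 and 1961 in mrps-38(P210L), and 1313, 1383 and 1415 in wildtype. grh-1 had 257, 307 and 294 in the double mutant, 847, 679 and 727 in lonp-1(cmh24), 1767, 1925 and 1685 in mrps-38(P210L), and 1063, 1306 and 1179 in wildtype. Both genes followed the order of myrf-1, highest in mrps-38(P210L), then wildtype, lonp-1(cmh24) and the double mutant, with no overlap between neighbours in that order.

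The receptor gene nhr-25 had 41.01, 48.5 and 53.0 normalized counts in the double mutant, 168, 175 and 192 in lonp-1(cmh24), 716, 771 and 685 in mrps-38(P210L), and 310.4, 258 and 322 in wildtype. It spanned the widest range of the 7, 15.2-fold between the highest and lowest genotype mean, and again no neighbouring genotypes overlapped. The double mutant values rest on 43 to 55 reads per library, with a counting error (Poisson) of 13.5 to 15.2%, beside a spread between replicates of 12.7%. nhr-85, the E75-related receptor, had 66.8, 66.9 and 70.3 in the double mutant, 200.6, 166 and 194 in lonp-1(cmh24), 538, 537 and 518 in mrps-38(P210L), and 229, 200.5 and 215 in wildtype. Its libraries of lonp-1(cmh24) and wildtype overlapped, while the other neighbours did not. It rests on 69 to 73 reads in the double mutant, a counting error of 11.7 to 12%.

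bed-3 had 247, 267 and 215 normalized counts in the double mutant, 833, 764 and 766 in lonp-1(cmh24), 1009.7, 1015 and 1092 in mrps-38(P210L), and 1045, 1369 and 1119 in wildtype. It kept the low end of the common order but not its top, because mrps-38(P210L) and wildtype overlapped. nhr-23 had 971, 1074 and 1016 in the double mutant, 1049, 838 and 964 in lonp-1(cmh24), 1388, 1462 and 1441 in mrps-38(P210L), and 1007, 932 and 969.7 in wildtype. For nhr-23 only mrps-38(P210L) stood apart, and the libraries of the other 3 genotypes overlapped.

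**Figure D1:**
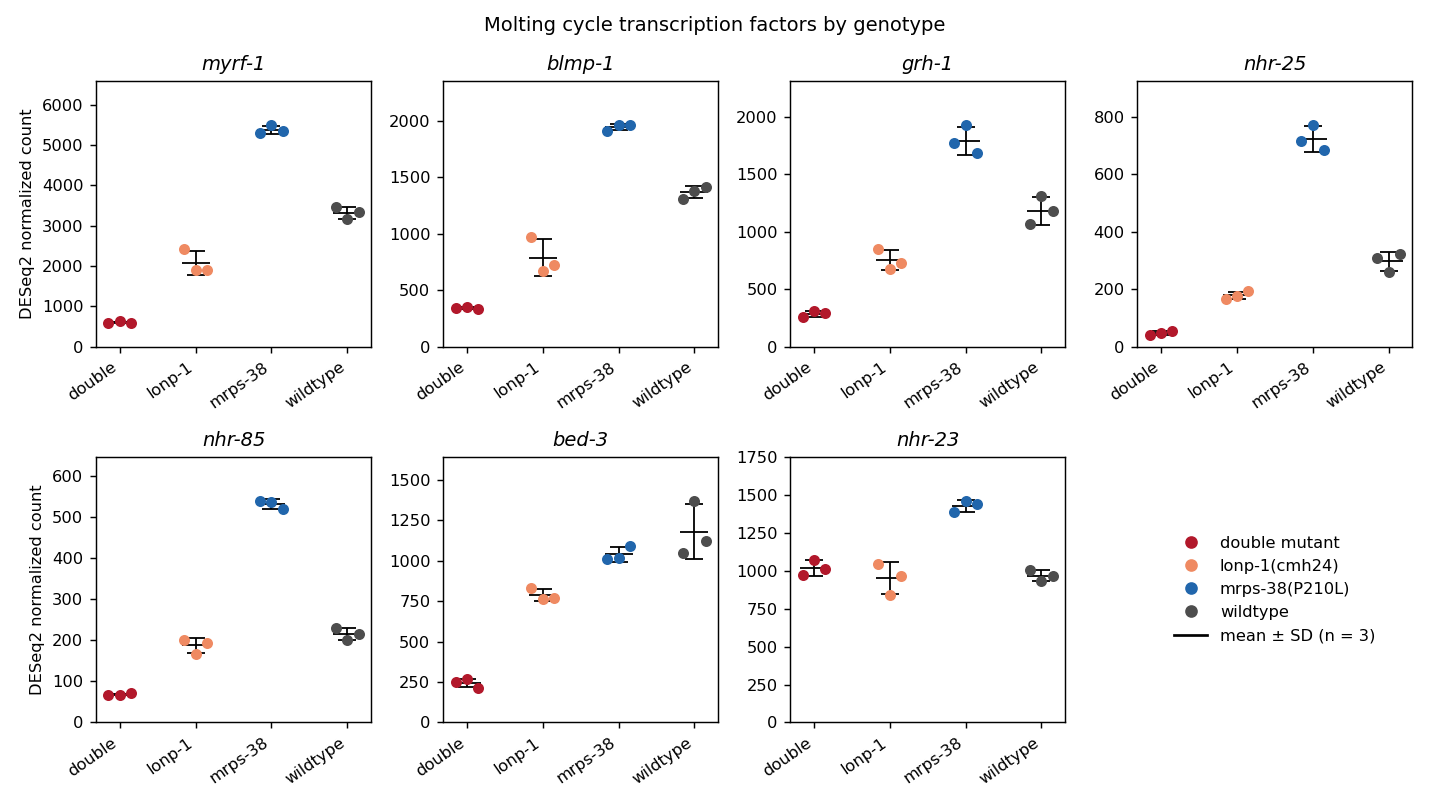
DESeq2 normalized counts (vertical axes, linear from 0) of the 7 factors in each library, by genotype, with the mean and SD of 3 libraries as black bars. For 6 factors the double mutant is the lowest group, with means of 47.5 (nhr-25) to 602 (myrf-1), while nhr-23 averages 1020 in the double mutant and 969.5 in wildtype.

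Corrected for length, myrf-1 was the most abundant of the 7 in wildtype, at 40.9 ± 1.11 FPKM (SD). bed-3 followed at 23.6 ± 3.91 FPKM, then blmp-1 at 17.96 ± 0.858, grh-1 at 17.6 ± 2.15 and nhr-23 at 17.3 ± 0.378, which lay within each other's spread. nhr-25 at 5.20 ± 0.497 FPKM and nhr-85 at 3.84 ± 0.189 were the least abundant. In the double mutant the order was different, with nhr-23 first at 18.4 ± 0.798 FPKM, myrf-1 at 7.50 ± 0.218, bed-3 at 4.91 ± 0.511, blmp-1 at 4.55 ± 0.0736, grh-1 at 4.29 ± 0.36, nhr-85 at 1.23 ± 0.0386 and nhr-25 at 0.840 ± 0.105.

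All 7 genes are annotated as protein-coding on WBcel235, and 4 of them lie on chromosome I. These 4 are grh-1 (WBGene00001707, 1258201 to 1268155, minus strand), nhr-23 (WBGene00003622, 7214745 to 7221299, plus strand), blmp-1 (WBGene00003847, 10409302 to 10414773, plus strand) and nhr-85 (WBGene00003675, 13055201 to 13062122, minus strand). myrf-1 (WBGene00004134) lies on chromosome II at 10496987 to 10502541 on the minus strand. bed-3 (WBGene00009133) lies on chromosome IV at 9916524 to 9921967 and nhr-25 (WBGene00003623) on chromosome X at 13008493 to 13013964, both on the plus strand. nhr-85 shares 835 exonic bases with npr-14 on the opposite strand, and bed-3 shares 30 with dur-1. Libraries were stranded per the labels, but whether counting used the strand is not given in the sources used here. npr-14 had 2.89 to 23.2 normalized counts in any library, well under the level of nhr-85. dur-1 had 1270 to 8660, above bed-3 in each genotype. The effect of the shared bases on the counts of nhr-85 and bed-3 was not tested.

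The double mutant was compared with wildtype to ask how both mutations together changed these factors. Of the 7, 6 fell, and nhr-23 did not. nhr-25 fell the most, by 2.62 ± 0.116 on the log2 scale (adjusted p = 4.11e-10), or 6.15-fold. myrf-1 fell by 2.46 ± 0.0806 (2.29e-11) and bed-3 by 2.27 ± 0.0995 (3.85e-10). grh-1 (-2.04 ± 0.0991), blmp-1 (-1.99 ± 0.104) and nhr-85 (-1.64 ± 0.0933) fell too, with adjusted p of 9.94e-10, 2.51e-09 and 4.4e-09. All adjusted p values are from limma.

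Among all tested genes 33.6% fell in that comparison, so a fall alone was common. The 6 factors fell by at least 3.12-fold, and 2.05% (for nhr-25) to 5.99% (for nhr-85) of tested genes had a lower fold change. The median log2 fold change of the 7 factors was -2.04, and that of all tested genes 0.09. nhr-23 had a log2 fold change of 0.07 ± 0.074 (limma adjusted p = 0.382), with a 95% interval of -0.087 to 0.233, an interval that leaves out a fall of the size of the other 6. Its sign depended on the scaling, at -0.05 with TMM factors (adjusted p = 0.55) and 0.44 ± 0.0716 with libraries scaled to the epidermis markers (5.99e-05), and the adjusted p ranged from 5.99e-05 to 0.716 over all settings tried.

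The comparison of the double mutant with lonp-1(cmh24) asked what the mitoribosomal mutation did in worms that already carried the lonp-1 mutation. The same 6 factors were lower in the double mutant, with log2 fold changes of -1.89 ± 0.116 for nhr-25 (limma adjusted p = 3.32e-08), -1.78 ± 0.0806 for myrf-1 (2.17e-09) and -1.70 ± 0.0995 for bed-3 (2.23e-08). nhr-85, grh-1 and blmp-1 had log2 fold changes of -1.44 ± 0.0933, -1.39 ± 0.0991 and -1.18 ± 0.104. Of all tested genes 24.5% fell. These 6 fell at least 2.26-fold, and 2.07% (for nhr-25) to 5.76% (for blmp-1) of tested genes had a lower fold change. nhr-23 was at 0.11 ± 0.074 (adjusted p = 0.24, 95% interval -0.053 to 0.267). It passed as higher without replicate 1 of lonp-1(cmh24), at 0.18 (adjusted p = 0.0357), and with scaling to the epidermis markers, at 0.31 (0.00204). It was negative and did not pass with TMM factors (-0.025), in edgeR (-0.049), on FPKM (-0.11) and with total reads (-0.11), so its direction depended on the scaling.

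Against mrps-38(P210L), all 7 factors were lower in the double mutant, in a comparison in which 40.0% of all tested genes fell. This comparison asked what the lonp-1 mutation did in the mrps-38(P210L) background. nhr-25 fell 15-fold, a log2 fold change of -3.91 ± 0.116 (limma adjusted p = 5.81e-12), and 0.433% of all tested genes had a lower value. myrf-1 fell 8.93-fold (-3.16 ± 0.0806), nhr-85 7.71-fold (-2.95 ± 0.0933), grh-1 6.25-fold (-2.64 ± 0.0991), blmp-1 5.65-fold (-2.50 ± 0.104) and bed-3 4.28-fold (-2.10 ± 0.0995), with adjusted p of 1.69e-12 to 3.82e-10. nhr-23 fell by 0.49 ± 0.074 (adjusted p = 3.37e-05). The fall of nhr-23 depended on the scaling, at -0.22 ± 0.0693 with total reads (adjusted p = 0.0101) and 0.16 ± 0.0716 with the epidermis markers (adjusted p = 0.0506).

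In lonp-1(cmh24) alone, compared with wildtype to ask for the effect of the protease mutation, 5 of the 7 factors fell by modest amounts. blmp-1 fell by 0.81 ± 0.104 on the log2 scale (limma adjusted p = 1.62e-05), nhr-25 by 0.73 ± 0.116 (0.000101), myrf-1 by 0.68 ± 0.0806 (6.85e-06), grh-1 by 0.66 ± 0.0991 (6.44e-05) and bed-3 by 0.57 ± 0.0995 (0.000215). These are falls of 1.49- to 1.76-fold. Of all tested genes 32.1% fell, and 10.8% (for blmp-1) to 19.6% (for bed-3) had a lower fold change than these 5. nhr-85 was at -0.20 ± 0.0933 (adjusted p = 0.0757, 95% interval -0.404 to 0) and nhr-23 at -0.03 ± 0.074 (adjusted p = 0.71, 95% interval -0.194 to 0.126). nhr-85 passed without replicate 1 of lonp-1(cmh24) at -0.25 (adjusted p = 0.0347) and without replicate 2 of wildtype at -0.25 (0.048), and was at 0.03 with total-read scaling. nhr-23 passed in the upward direction at 0.195 ± 0.0693 with total-read scaling (adjusted p = 0.0253).

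In mrps-38(P210L) alone, compared with wildtype to ask for the effect of the mitoribosomal mutation, the factors went the other way. Of the 7, 6 rose, while 31.5% of all tested genes rose. nhr-85 rose 2.47-fold (log2 1.30 ± 0.0933, limma adjusted p = 1.2e-07) and nhr-25 rose 2.44-fold (1.29 ± 0.116, 8.06e-07), and 97.3% and 97.2% of tested genes had a lower fold change than these receptors. myrf-1 rose by 0.70 ± 0.0806, grh-1 by 0.60 ± 0.0991, nhr-23 by 0.56 ± 0.074 and blmp-1 by 0.51 ± 0.104, with adjusted p of 6.79e-06, 0.000136, 2.09e-05 and 0.000841. Without replicate 3 of mrps-38(P210L), the library that stood apart, the same 6 passed.

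bed-3 was the exception at -0.17 ± 0.0995 (adjusted p = 0.143, 95% interval -0.388 to 0.043). It passed as lower with total-read scaling, at -0.43 ± 0.105 (adjusted p = 0.00282), and with scaling to the epidermis markers, at -0.45 ± 0.098 (0.00103). Without replicate 1 of wildtype it also passed, at -0.25 (0.0476). The rises were smaller under total-read scaling and all 6 passed there, with myrf-1 at 0.44, grh-1 at 0.35, nhr-23 at 0.31, blmp-1 at 0.25 ± 0.101 (adjusted p = 0.0413), nhr-25 at 1.03 and nhr-85 at 1.05. On FPKM blmp-1 was at 0.25 ± 0.107 and did not pass (0.06).

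**Figure D2:**
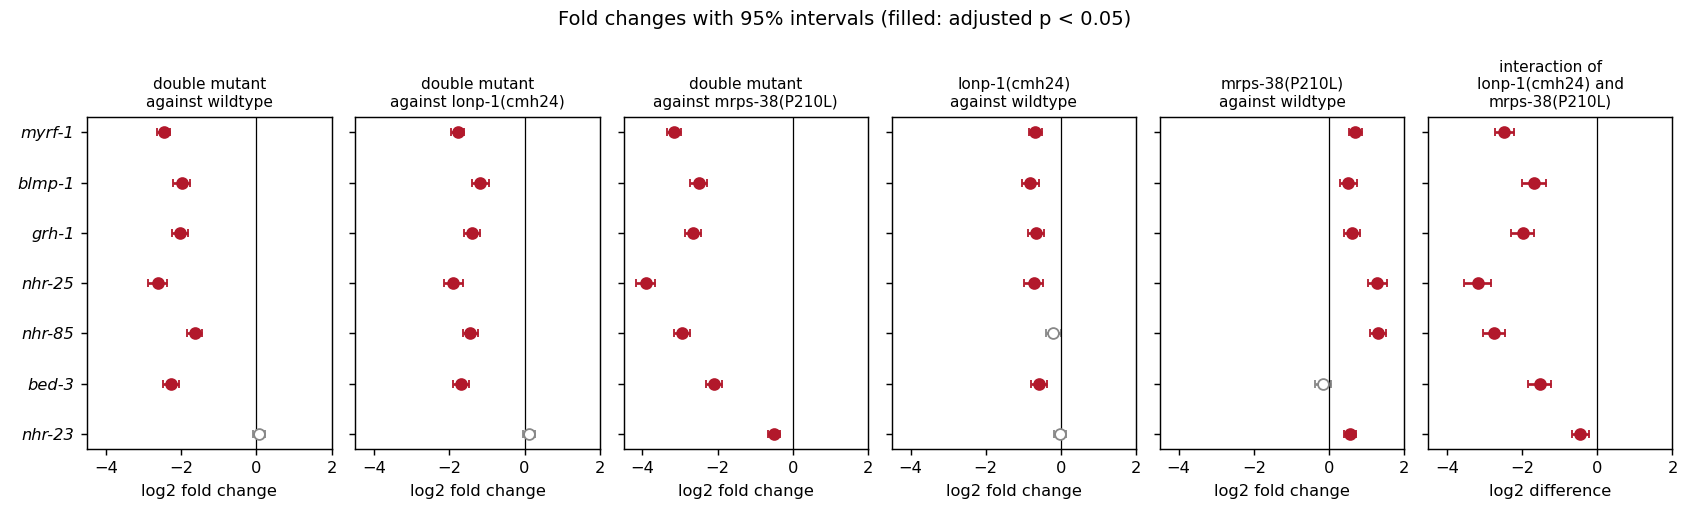
Log2 fold changes of the 7 factors (points) with 95% intervals (bars) in the 5 comparisons of genotypes and in the interaction, on the same horizontal scale. Filled points passed an adjusted p of 0.05 in limma, and nhr-23 stays within 0.6 of 0 in every panel while nhr-25 reaches -3.91.

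For 5 of the factors the mrps-38 mutation had opposite effects in the 2 backgrounds. The comparisons behind this statement share no library, but they share the fit, its estimate of spread and the set of size factors. Of all tested genes 24.5% fell when the mrps-38 mutation was added to the lonp-1 mutation, and 31.5% rose when it was added to wildtype. How many of all genes did both was not counted. myrf-1 was at -1.78 ± 0.0806 for the double mutant against lonp-1(cmh24) and at 0.70 ± 0.0806 for mrps-38(P210L) against wildtype. The pairs of values in the same order were -1.18 and 0.51 for blmp-1, -1.39 and 0.60 for grh-1, -1.89 and 1.29 for nhr-25, and -1.44 and 1.30 for nhr-85. For bed-3 they were -1.70 and -0.17, and for nhr-23 0.11 and 0.56.

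The interaction tests that difference directly. It asks whether the double mutant departs from the sum of both single effects on the log2 scale, and it was negative and passed for all 7 factors, beside 31.6% of all tested genes that passed in that direction and 66.0% that passed in either. nhr-25 departed the most, by -3.18 ± 0.164 (limma adjusted p = 5.97e-09). Both single effects of nhr-25 sum to 0.56, and the double mutant was at -2.62. nhr-85 departed by -2.74 ± 0.132 (3.61e-09), with a sum of 1.10 and a double mutant value of -1.64, and myrf-1 by -2.47 ± 0.114 (2.66e-09), with a sum of 0.01 and a value of -2.46.

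grh-1, blmp-1 and bed-3 had interactions of -1.99 ± 0.14, -1.68 ± 0.147 and -1.53 ± 0.141, with adjusted p of 7.58e-08, 6.03e-07 and 8.41e-07. nhr-23 had the smallest, -0.45 ± 0.105 (limma adjusted p = 0.00185). Scaling to the epidermis markers turned the nhr-23 value to 0.03 ± 0.101 (0.83), while the other 6 passed under that scaling too.

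In the double mutant nhr-23 exceeded the other factors. This was measured by ratios of FPKM within a library, which no scaling between libraries touches. nhr-23 over myrf-1 was 2.38 to 2.50 in the double mutant, 0.624 to 0.735 in lonp-1(cmh24), 0.378 to 0.390 in mrps-38(P210L) and 0.420 to 0.425 in wildtype. The double mutant lies above all other libraries, and lonp-1(cmh24) between it and the rest.

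nhr-23 over nhr-25 was 19.5 to 24.1 in the double mutant, 4.87 to 6.36 in lonp-1(cmh24), 1.93 to 2.14 in mrps-38(P210L) and 3.06 to 3.67 in wildtype. Against blmp-1 the ratio was 3.85 to 4.16 in the double mutant, 1.46 to 1.81 in lonp-1(cmh24), 0.986 to 1.01 in mrps-38(P210L) and 0.917 to 1.04 in wildtype. Here mrps-38(P210L) and wildtype overlapped. The ratios to grh-1, nhr-85 and bed-3 were also highest in the double mutant, at 4.16 to 4.53, 14.4 to 16 and 3.50 to 4.22, against 0.858 to 1.14, 4.37 to 4.63 and 0.607 to 0.859 in wildtype. In whole worms fewer expressing cells and less RNA per cell cannot be told apart. The share of major sperm protein reads, given above, was also highest in the double mutant, and its part in the nhr-23 level was not tested.

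**Figure D3:**
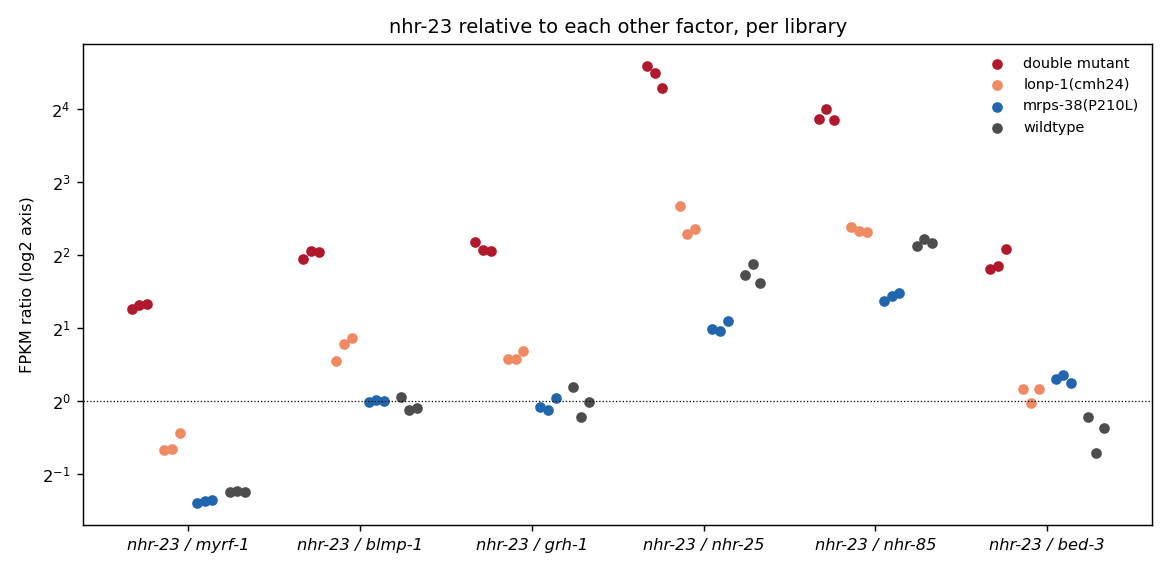
Ratio of nhr-23 FPKM to the FPKM of each other factor (vertical axis, log2 scale) in every library, coloured by genotype. The double mutant libraries are the highest in all 6 ratios, for example 2.38 to 2.50 against 0.420 to 0.425 in wildtype for nhr-23 over myrf-1.

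Across the 12 libraries the factors other than nhr-23 moved closely together, as a description of libraries that share 4 genotypes and their size factors. Pearson's r on log2 normalized counts was 0.991 between myrf-1 and blmp-1, 0.994 between myrf-1 and grh-1, 0.985 between myrf-1 and nhr-25 and 0.968 between myrf-1 and nhr-85. With these 5, bed-3 had r of 0.842 (nhr-85) to 0.941 (myrf-1), and nhr-23 had r of 0.231 (bed-3) to 0.678 (nhr-85) with the other 6. Around the genotype means the order was different, with r of 0.863 between myrf-1 and blmp-1, -0.055 between myrf-1 and nhr-25 and 0.784 between myrf-1 and nhr-23.

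The 3 genes most like each factor were found by the same r over 12 libraries among 12914 genes whose mean reached 50 normalized counts. For myrf-1 they were pan-1, a transmembrane protein with leucine-rich repeats (r = 0.998), the apical matrix gene noah-2 (0.998) and R03H10.2 (0.998). For blmp-1 they were bus-19 (0.997), bbln-1 (0.996) and dre-1, an F-box gene of developmental timing (0.996). For grh-1 they were the C-type lectin gene clec-78 (0.998), F33G12.6 (0.997) and F13D11.4 (0.996).

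nhr-25 was followed most closely by ugt-65, a glucuronosyltransferase gene (0.998), madd-2 (0.997) and F45D3.2 (0.996), and nhr-85 by C05D9.7 (0.997), C05C8.7 (0.996) and the flavin monooxygenase gene fmo-4 (0.996). bed-3 was followed by dpy-18, a subunit of the collagen prolyl hydroxylase (0.994), R74.2 (0.994) and F23H12.5 (0.993). dpy-18 had 1837 normalized counts in the double mutant, 5627 in lonp-1(cmh24), 7486 in mrps-38(P210L) and 8437 in wildtype.

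For nhr-23 the closest were metabolic and transport genes, namely nkb-1, a sodium pump subunit (0.980), sdhb-1, a subunit of succinate dehydrogenase (0.979), and pccb-1, a subunit of propionyl-CoA carboxylase (0.977). sdhb-1 had 5536 normalized counts in the double mutant, 4947 in lonp-1(cmh24), 7777 in mrps-38(P210L) and 5427 in wildtype. Only 62 genes had an r above 0.95 with nhr-23, against 385 for bed-3 and 420 to 677 for the other 5. The genotype means of nhr-23 spanned 1.5-fold, against 4.85-fold (bed-3) to 15.2-fold (nhr-25) for the others. With a narrow span the spread between replicates lowers r more, and its part in the count was not tested.

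Other regulators of the molt, a list of 17 genes of kinases, receptors and timing factors, were lower in the double mutant than in wildtype in 14 cases and higher in 2 (median -1.62, beside 0.09 for all genes). acn-1, an angiotensin-converting-enzyme-like protein needed for molting, fell by 2.97 ± 0.0696 on the log2 scale (limma adjusted p = 1.12e-12). The nuclear receptor gene nhr-91 fell by 2.34 ± 0.105, mlt-4, which acts with the molting kinases of the NEKL family, was at -2.29 ± 0.143, and lin-42, the worm Period gene, at -2.25 ± 0.0909, both called. The 2 that rose were dab-1 (0.49) and hgrs-1 (0.30), both of endocytic trafficking, named after their values were seen.

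Against lonp-1(cmh24) 13 of these 17 genes were lower in the double mutant and 1 was higher (median -0.83), led by acn-1 (-1.92 ± 0.0696) and lin-42 (-1.66 ± 0.0909); the higher gene was let-767 (0.32). Against mrps-38(P210L) 14 were lower and 2 higher (median -1.71), led by nhr-91 (-3.25 ± 0.105) and acn-1 (-3.24 ± 0.0696), and the higher ones were hgrs-1 (0.97) and nekl-2 (0.39). In lonp-1(cmh24) against wildtype 13 fell and 2 rose (median -0.55), with acn-1 at -1.05 ± 0.0696, dab-1 at 0.76 and hgrs-1 at 0.21. In mrps-38(P210L) against wildtype 10 rose and 5 fell (median 0.51), with the hormone receptor gene daf-12 at 1.87 ± 0.0807 and the casein kinase gene kin-20 at 0.99 ± 0.0928 above wildtype, and the kinase gene nekl-2 at -0.77 ± 0.117. lin-42 was at -0.59 ± 0.0909 in lonp-1(cmh24) and 0.67 ± 0.0909 in mrps-38(P210L), both against wildtype and both called. The higher genes and these lin-42 values were named after the values were seen.

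Effectors of the molt, 25 genes of the apical extracellular matrix, its proteases and hedgehog-related proteins, are the layer that such factors act on. In the double mutant against wildtype 24 of 25 fell and none rose (median -3.12). wrt-10, a hedgehog-related gene, had a log2 fold change of -4.04 ± 0.0618 (limma adjusted p = 3.97e-14). sym-1 was at -3.97 ± 0.0614, the fibrillin-like gene fbn-1 at -3.89 ± 0.11 and the lipocalin gene lpr-3 at -3.85 ± 0.0666. The gene that did not pass was tsp-15, a tetraspanin gene, at -0.16 (limma adjusted p = 0.156), named after its value was seen.

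Of the same 25 effectors 23 were lower in the double mutant than in lonp-1(cmh24) (median -2.10), and 25 were lower than in mrps-38(P210L) (median -3.24). In lonp-1(cmh24) against wildtype 23 fell (median -0.97), led by wrt-4 (-2.14 ± 0.207), the cuticlin gene cut-2 (-1.65 ± 0.103) and nas-37, an astacin protease of cuticle shedding (-1.41 ± 0.0567). In mrps-38(P210L) against wildtype they split, 10 of 25 higher and 5 lower, beside 31.5% of all tested genes that rose. There cut-2 at 1.10 ± 0.103 and noah-2 at 0.73 ± 0.0992 were above wildtype, and wrt-4 at -1.61 ± 0.207 was below. That split depended on the scaling, with 5 higher and 9 lower under total reads. In the other 4 comparisons of genotypes no effector rose under either of these scalings, while in the interaction 24 passed as negative and wrt-4 as positive (1.31 ± 0.293, named after its value was seen). The 6 furrow collagens, which form the annular grooves of the cuticle, fell in all 3 comparisons of the double mutant (medians -3.75 against wildtype, -2.55 against lonp-1(cmh24), -3.94 against mrps-38(P210L)) and in lonp-1(cmh24) (-1.18). In mrps-38(P210L) against wildtype 5 of 6 rose with a median of 0.34, and 3 of 6 under total reads.

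Genes used as epidermis markers, which are not part of the molting machinery, were measured beside these lists. They were ajm-1, dlg-1, let-413, vab-10, lin-26, elt-1, elt-3 and hmr-1. Several of them are junction genes, which other epithelia express too, so the list does not measure the epidermis alone. In the double mutant against wildtype 7 of 8 fell and elt-1 rose (0.37, named after its value was seen). The median of the 8 was -0.44, and the largest fall was that of the junction gene dlg-1 (-0.94 ± 0.105). In mrps-38(P210L) against wildtype 6 of 8 rose and 1 fell, with a median of 0.32, beside 0.19 for the molting effectors and 0.34 for the furrow collagens. That count depended on the scaling, with 1 higher and 1 lower of the 8 markers under total reads and also on FPKM. Their summed share of reads was 0.081 to 0.0813% in the double mutant, 0.103 to 0.114% in lonp-1(cmh24), 0.109 to 0.115% in mrps-38(P210L) and 0.104 to 0.116% in wildtype, and none of the 8 was at 0 in any group. The double mutant lay below the other groups, which overlapped. When libraries were scaled to these 8 markers, myrf-1, blmp-1, grh-1, nhr-25, nhr-85 and bed-3 still passed as lower in the double mutant than in each of the other genotypes, with blmp-1 at -1.62 ± 0.0876 against wildtype. That scaling is not a correction for the amount of epidermis.

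**Figure D4:**
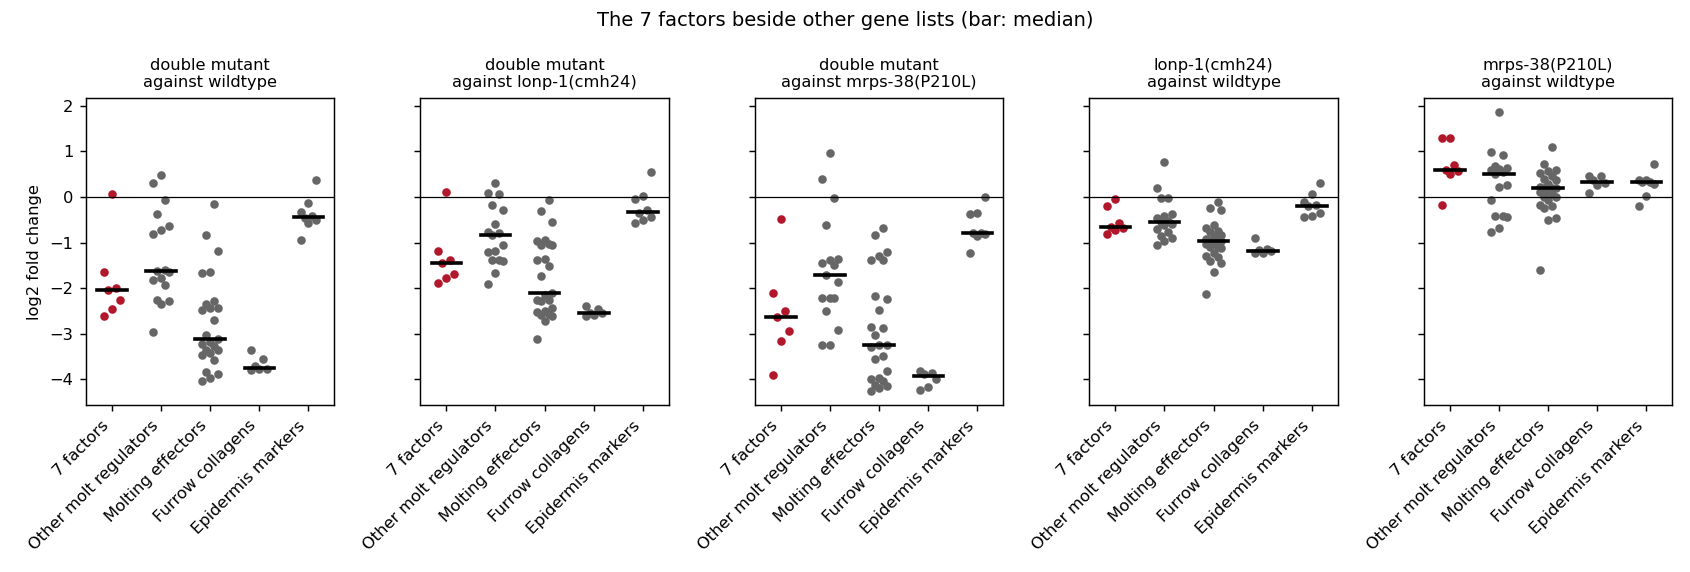
Log2 fold changes (vertical axis) of the 7 factors (red) beside 17 other regulators of the molt, 25 molting effectors, 6 furrow collagens and 8 epidermis markers (grey), with the median of each list as a bar, in 5 comparisons. In the double mutant against wildtype the medians are -2.04, -1.62, -3.12, -3.75 and -0.44 in that order.

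The markers of other tissues moved as well. Germline and oocyte markers (9 genes) took 0.21 to 0.212% of reads in the double mutant, 0.174 to 0.216% in lonp-1(cmh24), 0.0389 to 0.045% in mrps-38(P210L) and 0.088 to 0.0968% in wildtype, so that the genotypes with low factor levels had the higher shares. These sums mix directions, because in lonp-1(cmh24) against wildtype 6 of the 9 rose and 2 fell. There glh-1 averaged 5693 normalized counts against 8138 and pgl-1 3268 against 3967, while puf-5 averaged 5220 against 322. Neuron markers (7 genes) took 0.0318 to 0.0322% in the double mutant, 0.0454 to 0.0474% in lonp-1(cmh24), 0.0501 to 0.0552% in mrps-38(P210L) and 0.0428 to 0.0461% in wildtype. Body wall muscle markers (6 genes) took 0.861 to 0.886%, 0.596 to 0.63%, 1.04 to 1.09% and 0.975 to 1.18%, and intestine markers (7 genes) 0.714 to 0.72%, 0.492 to 0.748%, 0.77 to 0.854% and 0.485 to 0.668%, in the same order of genotypes. No marker of these lists was at 0 in a whole group, and the part of tissue composition or of the stage reached in the levels of the factors was not tested.

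**Figure D5:**
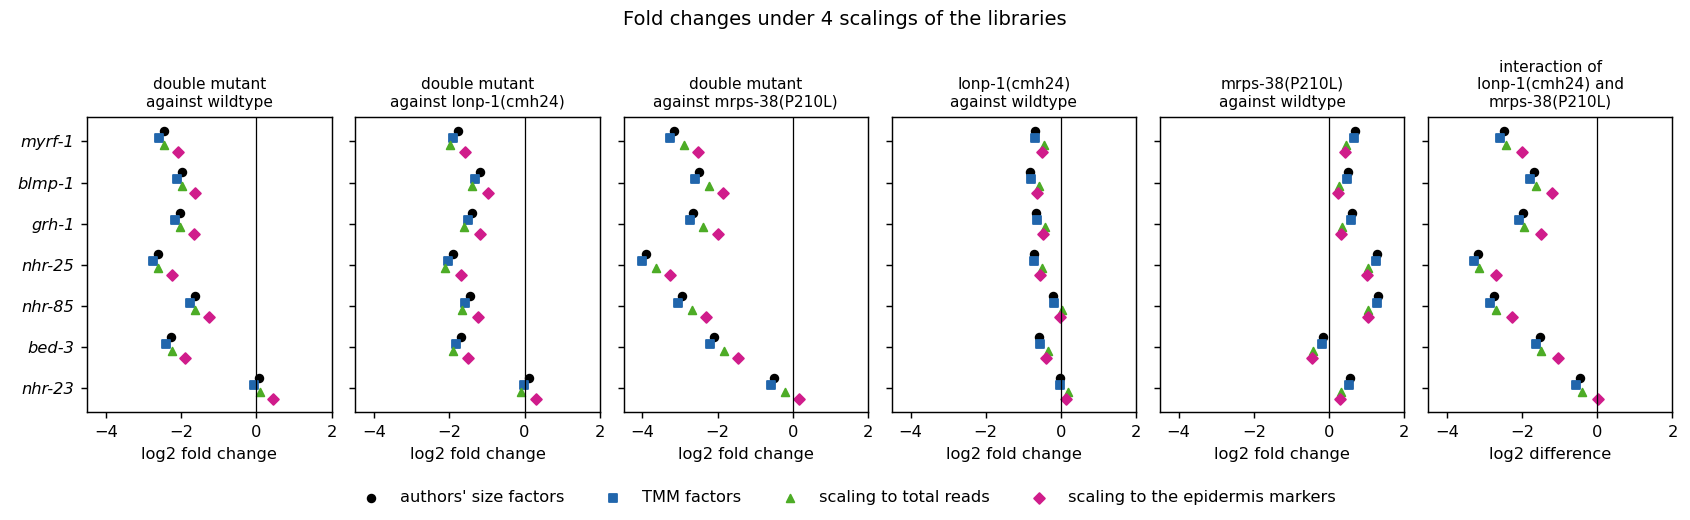
Log2 fold changes of the 7 factors under the authors' size factors, TMM factors, scaling to total reads and scaling to 8 epidermis markers (symbols), in 5 comparisons and the interaction. For nhr-23 in the double mutant against mrps-38(P210L) the value moves between -0.58 and 0.16, while nhr-25 stays below -3 there under all 4 scalings.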

How the data were processed

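The submitters' processing notes name STAR, featureCounts, DESeq2 and the WBcel235 build; their versions and settings, strand included, are not given in the sources used here. Of the 2 tables the authors deposited, one holds DESeq2 normalized counts (a signal, each library divided by its size factor) and the other FPKM. Every library's values were whole multiples of 1 step (100.0% within 0.01), so whole reads were recovered; size factors were 0.8479 to 1.215, and both tables hold the same reads. Counting error of the 7 factors was taken as the Poisson error of the recovered reads. Positions of the 7 genes matched Ensembl release 115, which also gave strands.

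limma (3.58.1, R 4.3.3; trend and robust empirical Bayes, two-sided) was run on log2(normalized count + 1) with all 12 libraries in 1 fit, genes with a mean of at least 10 (15717), 6 comparisons, and Benjamini-Hochberg adjustment over all tested genes; the 5 comparisons of 2 groups share libraries. The fit was first tested on simulated data with few changed genes, in lonp-1(cmh24) only, and with known size factors. That setting does not cover the many genes called here or the choice of scaling. Alternatives were pseudocounts (0.5, 5), filters (none, 50), TMM, FPKM (log2(FPKM + 0.1), mean of at least 0.5), edgeR (4.0.16) and DESeq2 (1.42.0) on recovered reads, each library left out, a block for the replicate number and fits restricted to the groups in a comparison; scaling to total reads and to epidermis markers was added after seeing the data. The members and gene lists were chosen with earlier results of these data known. Named list genes are up to 4 called members with the largest change and a mean of at least 50. No sequences were used.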

Additional observations from a re-analysis of the deposited data

Results flagged for a closer look

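For all 7 factors the effect of the lonp-1 mutation differed between the mrps-38(P210L) background and wildtype by the test of the interaction itself in limma (each adjusted p under 0.05). The log2 differences were -2.47 for myrf-1, -1.68 for blmp-1, -1.99 for grh-1, -3.18 for nhr-25, -2.74 for nhr-85, -1.53 for bed-3 and -0.45 for nhr-23. The same test called 66.0% of all tested genes in either direction. No formal test for a single outlying library was made for groups of 3; the libraries that lay away from their group are named in the results.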

How the results depend on the processing

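Over 24 alternative settings, 987 of 1001 values of single factors kept their side of the threshold and, where called, their direction. The count of factors that passed was 6 to 7 in every comparison but lonp-1(cmh24) against wildtype, where it was 5 to 6. Values that passed on at least 1 side and turned round were those of nhr-23, namely 0.16 against mrps-38(P210L) and 0.0257 in the interaction with scaling to the epidermis markers, and in lonp-1(cmh24) against wildtype 0.19 on FPKM and 0.195 with total reads; the cause was not tested. Values that passed on neither side also changed sign, namely nhr-23 in the double mutant against wildtype (TMM factors, edgeR) and against lonp-1(cmh24) (TMM factors, edgeR, FPKM, total reads), nhr-85 in lonp-1(cmh24) against wildtype (0.0256 on FPKM, 0.0261 with total reads), and nhr-23 there in edgeR, without replicate 2 of lonp-1(cmh24) and with the epidermis markers. No pairing of libraries by replicate number was seen, a weak check with 3 libraries per group. Of 18 same-numbered pairs 1 had a correlation of deviations over 0.1 (range -0.159 to 0.122), beside 2 of 36 differently numbered pairs (range -0.18 to 0.195). With a replicate block the count of factors that passed was 6, 6, 7, 5, 6 and 7 in the order of the comparisons in the text, the interaction last, as without it. Leaving out single libraries gave 6 to 7 factors for the double mutant against lonp-1(cmh24), 5 to 6 for lonp-1(cmh24) and 6 to 7 for mrps-38(P210L) against wildtype, and moved the nhr-25 change in the double mutant between -2.72 and -2.52. Scaling moved the balance of all calls, so that 66.9% of calls in lonp-1(cmh24) against wildtype were higher under total reads (48.8% with the authors' factors), 25.6% in mrps-38(P210L) against wildtype (47.6%), 30.3% for the double mutant set against lonp-1(cmh24) (54.9%; 38.4% with TMM factors) and 62.3% for it against mrps-38(P210L) (52.2%). With the epidermis markers 62.3% of calls were higher in lonp-1(cmh24) and 23.7% in mrps-38(P210L), each against wildtype, and 76.0%, 75.4%, 76.8% and 77.7% were higher for the double mutant against wildtype, lonp-1(cmh24) and mrps-38(P210L) and for the interaction. Total reads shifted the median of all genes to 0.17 in lonp-1(cmh24), where it was -0.06, and to -0.26 in mrps-38(P210L), where it was -0.01.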

Other observations

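Timing genes that act beside the molting factors moved in both directions. In the double mutant against wildtype, 5 of 7 heterochronic genes fell and 2 rose, with mab-10 at -1.83 ± 0.131, lin-29, which drives the larval-to-adult switch of the epidermis, at -1.61 ± 0.0556 and the RNA-binding protein gene lin-41 at 1.72 ± 0.138 (limma log2 fold changes ± SE). lin-41 also rose in lonp-1(cmh24) (1.68 ± 0.138) and in mrps-38(P210L) (2.75 ± 0.138), while none of the 7 factors rose in lonp-1(cmh24) with the authors' size factors. The 3 adult cuticle collagens rose in the double mutant against wildtype (col-19 at 3.80 ± 1.09, col-7 at 2.57 ± 0.481, col-62 at 2.48 ± 0.513) and fell in mrps-38(P210L) (-7.43 ± 1.09, -6.86 ± 0.481 and -5.74 ± 0.513). Without replicate 3 of mrps-38(P210L), which held more of these transcripts than the other libraries of its group, the falls were -8.96 ± 0.207, -7.51 ± 0.212 and -6.46 ± 0.159, and col-19 was at -6.56 without replicate 1 and -6.78 without replicate 2. Of the 7 factors, 5 fell in the double mutant and rose in mrps-38(P210L) (myrf-1, blmp-1, grh-1, nhr-25 and nhr-85), and bed-3 and nhr-23 did not do both. Of all tested genes 33.6% fell in the double mutant and 31.5% rose in mrps-38(P210L), each against wildtype. The share of all genes that did both was not counted. Of 13 body-shape and blister collagens 11 fell and none rose in the double mutant against wildtype (median -2.95), and dpy-14 and dpy-17 rose in lonp-1(cmh24) (4.42 ± 0.377 and 1.72 ± 0.202) while the other 11 fell, of which bli-1 and bli-2 did not pass without replicate 2 or replicate 3 of lonp-1(cmh24), among others. dpy-14 averaged 208 ± 78.2 normalized counts (SD) in lonp-1(cmh24) and 4.28 to 8.97 in the other genotypes. It reached the mean needed for testing only through lonp-1(cmh24). Of 5 seam cell markers all 5 fell in the double mutant against wildtype (median -1.09; egl-18, at -0.31, did not pass without replicate 1 of the double mutant, among others), and 4 rose in mrps-38(P210L) (median 1.08). With the filter at a mean of 50, only 2 of the 5 were called in each of these comparisons. ceh-16, bro-1 and rnt-1 had low counts, with means of 5.13, 7.07 and 18.9 in the double mutant and 12.1, 27.7 and 38.1 in wildtype. dur-1, the neighbour of bed-3 with which it shares 30 exonic bases, had 1317 ± 55.7 normalized counts in the double mutant, 2543 ± 225 in lonp-1(cmh24), 8142 ± 466 in mrps-38(P210L) and 5680 ± 272 in wildtype (SD, n = 3). Both genes were lowest in the double mutant and next lowest in lonp-1(cmh24), while mrps-38(P210L) was above wildtype for dur-1 and not for bed-3. Whether dur-1 reads entered the bed-3 counts was not tested.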
